A study of Homo sapiens with 2 samples.

Results

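The genes described here encode 10 factors that transcribe the replication-dependent histone genes or process, bind and degrade their mRNA: SLBP, ERI1, LSM10, LSM11, ZNF473, CASP8AP2, NPAT, CPSF3, SYMPK and NCBP1. They were chosen by name, as the rows whose Entrez gene ID maps to these symbols, and all 10 were found among the 23033 genes with a value. RNAseq gave 2 libraries, both labelled T-47D, a line derived from breast cancer, and both treated with cisplatin at 2 µg/ml for a time that the text does not state. The control library is labelled WT, and the FZR1 ko library comes from cells in which FZR1, an activator of the anaphase-promoting complex, was knocked out with CRISPR/Cas9, in a line grown from single cells, so that it can carry the traits of a single clone. Each condition was sequenced as 1 library, which leaves every difference without a replicate check and allows no p-value. The values are FPKM, fragments scaled to transcript length and library size, and can be compared between genes, but the depth behind them is unknown.

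Both libraries lack some of the markers that T-47D, a luminal line, would carry. Of 11 luminal markers, 5 (ESR1, PGR, GATA3, CDH1 and KRT19) were under 1 FPKM in both, while KRT8, KRT18, XBP1, TFF1, FOXA1 and EPCAM were above it, XBP1 at 93.4 and 72.6 FPKM. The 11 summed to 1495 FPKM for control and 1836 for FZR1 ko, most of it from KRT8 at 829 and 998 FPKM and KRT18 at 552 and 740 FPKM, and 4 of 11 were higher in FZR1 ko. The 9 mesenchymal or basal markers summed to 361 FPKM and 390 FPKM, with 4 of 9 higher in FZR1 ko, 3 of 9 under 1 FPKM in both, and VIM at 315 and 295 FPKM. Of the markers with at least 1 FPKM in either library, 3 differed at least 2-fold after 1 FPKM was added to each value. Over all such genes 13.5% did. All 3 were higher in FZR1 ko. The luminal EPCAM had 3.90 and 11.5 FPKM, the mesenchymal CDH2 had 2.97 and 15.3 FPKM, and AXL had 16.02 and 37.8 FPKM. These levels go against the label, so the identity of the cells is in doubt, and T-47D is used here as the name the labels give. The part of these differences in the levels of the factors was not tested. FZR1 itself was at 12.3 FPKM with the WT label and at 10.1 FPKM with the ko label, which does not check the label, because a frameshift need not remove a transcript. The columns summed to 502589 and 500488 FPKM.

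Replication-dependent histone mRNAs are made in S phase and end in a conserved stem-loop instead of a poly(A) tail. NPAT activates their genes in the histone locus body, a nuclear body where CASP8AP2 and the U7 small nuclear ribonucleoprotein also gather. SLBP binds the stem-loop, U7 pairs with the RNA downstream of it, and a complex with CPSF3 and SYMPK cuts between them. SLBP then accompanies the mRNA through export and translation, and when DNA synthesis stops the mRNA is rapidly degraded, with ERI1 trimming its end.

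The RNA sites on which these factors meet are shown first, because the histone mRNAs that carry them differed more between the libraries than most of the factors did. A stem-loop of the conserved form was found after the stop codon in the GENCODE 44 transcript of 66 of 66 replication-dependent histone genes in the table. It occurred in 10 different versions, and the 4 most frequent were shared by 38, 10, 8 and 4 genes. A site of each of these 4 follows in this order, in DNA letters of the mRNA strand with the stem-loop in capitals, on hg38 at chr6:26031592-26031618 (minus strand), chr6:26104311-26104337 (plus strand), chr6:27146361-27146387 (minus strand) and chr1:149833026-149833052 (plus strand).
H3C2: cccaaaGGCTCTTTTCAGAGCCaccca
H4C3: cccaaaGGCCCTTTTCAGGGCCgctca
H2BC12: cccaaaGGCTCTTTTAAGAGCCactta
H4C14: cccaaaGGCCCTTTTTAGGGCCgacca

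U7 snRNA is the RNA of the U7 particle. Its gene RNU7-1 lies on the plus strand at chr12:6943816-6943878 of hg38 and is 63 bases long. Its 5′ part pairs with the histone pre-mRNA, and the capitals mark the site that holds the ring with LSM10 and LSM11. RNU7-1 was not found among the genes with a value, so its level is not known here.
RNU7-1: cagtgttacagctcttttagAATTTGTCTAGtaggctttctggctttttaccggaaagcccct

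Among the factors, the U7 protein LSM11 was the furthest apart, 2.205-fold lower in FZR1 ko than in control. Its binding partners CASP8AP2 and ZNF473 were 1.69-fold and 1.51-fold lower. The cap-binding protein NCBP1 was 1.76-fold higher in FZR1 ko and the scaffold SYMPK was 1.43-fold higher. SLBP, ERI1, LSM10, NPAT and CPSF3 differed by less than 1.2-fold. These folds are ratios of FPKM without a pseudocount, and the log2 ratios that follow divide FPKM + 1 of FZR1 ko by FPKM + 1 of control.

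All 10 genes had at least 1 FPKM in both libraries, from 5.69 to 38.5 FPKM, and so passed the filter of 1 FPKM in at least 1 library with 13554 genes in total. On the log2(FPKM + 1) scale 1 of 10 factors, LSM11, differed at least 2-fold. Among all genes kept, 13.5% differed that much, 6.72% being lower and 6.78% higher in FZR1 ko, so the share of the factors was close to the background. At 1.5-fold it was 3 of 10 factors (LSM11, CASP8AP2 and NCBP1) against 35.6% of all genes. The median log2 ratio of the 10 factors was -0.16, with 6 lower and 4 higher, against a median of -0.0048 over all genes kept. The middle 50% of all genes ran from -0.42 to 0.43, and 5 of the 10 factors lay inside it, 3 below and 2 above. The middle 90% ran from -1.11 to 1.11 and held all 10.

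**Figure D1:**
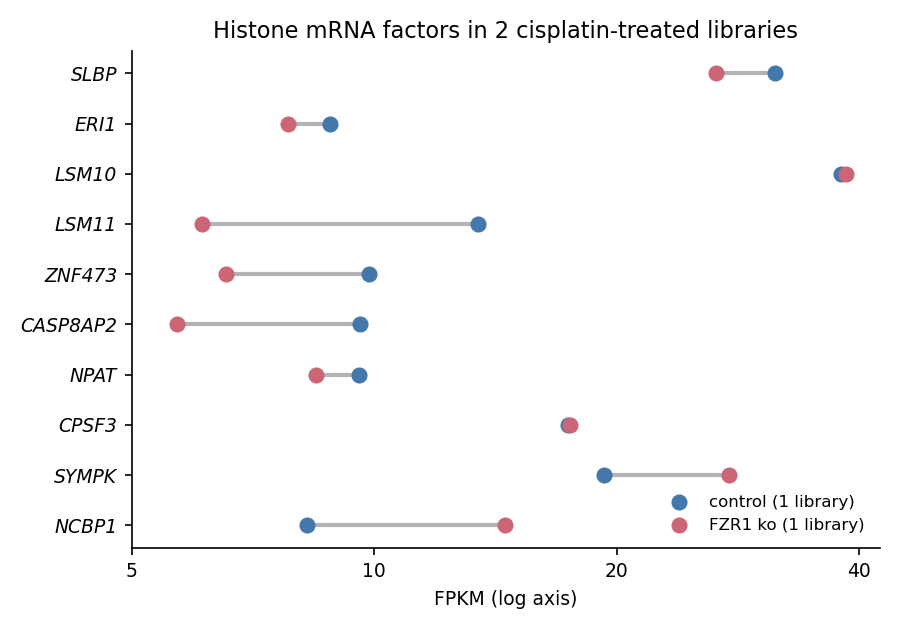
FPKM of the 10 factors on a log axis, with 1 point for the control library and 1 for the FZR1 ko library of each gene, joined by a grey line, and no error bars because there was 1 library each. LSM11 (13.5 and 6.11 FPKM) and NCBP1 (8.26 and 14.5 FPKM) are furthest apart, and the points of LSM10 and CPSF3 nearly coincide.

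SLBP, the stem-loop binding protein (Entrez gene 7884, chromosome 4, 1692731 to 1712319, minus strand), had 31.5 FPKM in control against 26.6 in FZR1 ko. The log2 ratio was -0.24, and 70.6% of all genes kept had a log2 ratio at least as large in either direction. By level it was number 2 of the factors in control and number 3 in FZR1 ko. ERI1, the exonuclease that binds the same stem-loop from its other side (Entrez gene 90459, chromosome 8, 9002897 to 9033338, plus strand), had 8.82 and 7.82 FPKM, a log2 ratio of -0.15. Both were thus slightly lower in FZR1 ko, well within the spread of all genes.

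The U7 particle carries a ring of Sm proteins in which LSM10 and LSM11 take the places that SmD1 and SmD2 hold in spliceosomal particles. LSM10 (Entrez gene 84967, chromosome 1, 36393436 to 36397908, minus strand) had 38.0 FPKM in control against 38.5 in FZR1 ko, a log2 ratio of 0.02, and was the highest of the factors in both libraries. LSM11 (Entrez gene 134353, chromosome 5, 157743712 to 157760709, plus strand) had 13.5 FPKM in control against 6.11 in FZR1 ko, a log2 ratio of -1.03. By level it was number 5 of the 10 factors in control and number 9 in FZR1 ko. Of all genes kept, 12.6% had a log2 ratio at least as large in either direction. The ratio of LSM11 to LSM10, which does not depend on the scale of a library, was 0.355 in control and 0.159 in FZR1 ko. LSM11 has the longest annotated 3′ UTR of the 10 factors, 5445 of the 6567 bases of its main transcript in GENCODE 44, and how the authors' transcript models treat it was not tested.

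The other ring proteins, which U7 shares with the spliceosome, were compared in the same way. All 5 of SNRPB, SNRPD3, SNRPE, SNRPF and SNRPG were kept, with log2 ratios from -0.09 to 0.33 and a median of 0.03, and 0 of 5 differed at least 2-fold, against 13.5% of all genes. SNRPD1, which encodes SmD1, had 31.0 and 41.2 FPKM, and SNRPD2, which encodes SmD2, had 267 and 262 FPKM. LSM11 was therefore at 0.0505 of SNRPD2 in control and 0.0233 in FZR1 ko, while LSM10 was at 1.23 of SNRPD1 in control and 0.935 in FZR1 ko.

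ZNF473 and CASP8AP2 encode proteins that bind LSM11. ZNF473, a zinc finger protein that also contacts SLBP on the stem-loop (Entrez gene 25888, chromosome 19, 50026005 to 50048776, plus strand), had 9.86 FPKM in control against 6.55 in FZR1 ko, a log2 ratio of -0.52. CASP8AP2, also known as FLASH, which brings the cleavage complex to U7 (Entrez gene 9994, chromosome 6, 89829939 to 89871388, plus strand), had 9.59 and 5.69 FPKM, a log2 ratio of -0.66. In FZR1 ko CASP8AP2, LSM11 and ZNF473 were the lowest 3 of the 10 factors, whereas in control they were numbers 7, 5 and 6 by level. Relative to LSM11, CASP8AP2 went from 0.712 in control to 0.931 in FZR1 ko and ZNF473 from 0.732 to 1.07. An antisense transcript of GENCODE 44 overlaps 245 bases of the exons of ZNF473 and another overlaps 41 bases of those of SYMPK, and whether the authors counted by strand is not given in the sources used here, so a part of these reads is uncertain.

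NPAT, the substrate of cyclin E and CDK2 that activates histone genes (Entrez gene 4863, chromosome 11, 108157215 to 108222638, minus strand), had 9.56 FPKM in control against 8.47 in FZR1 ko, a log2 ratio of -0.16. Of the 12 other genes listed for histone gene transcription, 8 were lower and 4 higher in FZR1 ko, with 4 of them at least 2-fold lower, against 6.72% of all genes. These were the cyclins CCNE1, with 56.7 and 22.9 FPKM, and CCNE2, with 77.3 and 24.3 FPKM, the elongation kinase CDK9, with 97.8 and 47.4 FPKM, and the transcription factor E2F1, with 83.4 and 38.8 FPKM. The median of the 12 was -0.42. CDK2, the partner of cyclin E, had 182 FPKM in control against 103 in FZR1 ko (-0.82). HINFP, a transcription factor of the H4 genes, had 6.56 and 5.11 FPKM (-0.31), while MYBL2, a transcription factor of cycling cells, had 126 and 203 FPKM (0.69). The kinase subunits that act on NPAT were thus further apart than NPAT itself.

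CPSF3 is the endonuclease that cuts both histone and polyadenylated pre-mRNA, and SYMPK is the scaffold that holds it. CPSF3 (Entrez gene 51692, chromosome 2, 9423654 to 9473101, plus strand) had 17.4 FPKM in control against 17.5 in FZR1 ko, a log2 ratio of 0.01. SYMPK (Entrez gene 8189, chromosome 19, 45815410 to 45863147, minus strand) had 19.3 and 27.6 FPKM, a log2 ratio of 0.49. CPSF2, which pairs with CPSF3 in the same complex, had 13.5 and 17.1 FPKM (0.32), and CSTF2, another part of it, 24.7 and 22.7 FPKM (-0.12). In a list of 19 genes of these partners and of general cleavage and polyadenylation, 10 were lower and 9 higher, the median was -0.04, and 2 of 19 were at least 2-fold lower, against 6.72% of all genes. They were CLP1, an RNA kinase of a cleavage factor, with 43.96 and 20.2 FPKM (-1.09), and CSTF2T, a relative of CSTF2. CSTF2T, with 2.66 and 0.83 FPKM, lies exactly on the threshold, passed the filter through control alone and so had to be lower. CPSF3, SYMPK and CPSF2 were thus equal or higher in FZR1 ko, none of them 2-fold.

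NCBP1, the large subunit of the nuclear cap-binding complex (Entrez gene 4686, chromosome 9, 97633821 to 97673748, plus strand), had 8.26 FPKM in control against 14.5 in FZR1 ko, a log2 ratio of 0.75. It was the lowest of the 10 factors in control and number 5 in FZR1 ko, and 24.5% of all genes kept had a log2 ratio at least as large. NCBP2, the small subunit, went the other way with 80.3 and 47.04 FPKM (-0.76). The ratio of NCBP1 to NCBP2 was 0.103 in control and 0.309 in FZR1 ko. Of 16 genes for cap binding, export and translation, 8 were lower and 8 higher, with a median of -0.03, and 1 of 16 was at least 2-fold lower and 1 of 16 at least 2-fold higher, against 6.72% and 6.78% of all genes. NXF1, the export receptor of mRNA, was at least 2-fold lower, with 155 FPKM in control against 50.2 in FZR1 ko (-1.61). CTIF, a translation factor that works with the cap-binding complex, was at least 2-fold higher, with 0.32 and 2.22 FPKM (1.29), and passed the filter through FZR1 ko alone. MIF4GD, which links SLBP to translation, had 17.0 and 15.5 FPKM (-0.12).

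The genes of histone mRNA decay other than ERI1 were spread around 0 as well. Of 23 genes, 12 were lower and 11 higher in FZR1 ko, with a median of -0.12, and 1 of 23 was at least 2-fold lower, against 6.72% of all genes. This was ERI2, an exonuclease related to ERI1, with 16.5 FPKM in control against 4.73 in FZR1 ko (-1.61). ERI3, the other relative, had 17.8 and 34.2 FPKM (0.91). ERI2 was therefore at 1.87 of the level of ERI1 in control and at 0.605 in FZR1 ko, and ERI3 at 2.02 in control and 4.38 in FZR1 ko. UPF1, the helicase that binds SLBP when decay starts, had 35.4 and 42.0 FPKM (0.24), and TUT7, which adds uridines to histone mRNA, had 6.91 and 4.80 FPKM (-0.45).

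SLBP protein is destroyed at the end of S phase, and the genes for this were also compared. CCNF, which encodes the cyclin F that marks SLBP for degradation, had 21.7 FPKM in control against 13.0 in FZR1 ko (-0.69). DCAF11, another adaptor of a ubiquitin ligase, had 12.2 and 13.9 FPKM (0.17). Of the 10 genes of this list 3 were lower and 7 higher, with a median of 0.16, and 0 of 10 differed at least 2-fold, against 13.5% of all genes. The mRNA levels say nothing about the amount of SLBP protein.

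**Figure D2:**
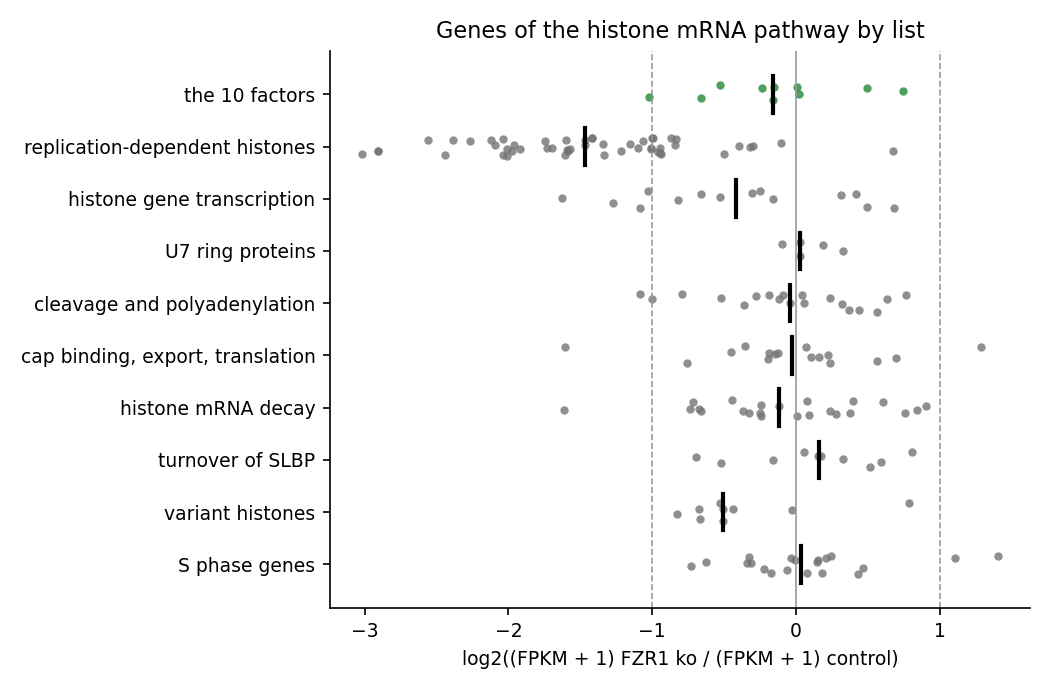
Log2 ratio of FZR1 ko to control for each gene kept, by list, with a black line at the median of each list and dashed lines at 2-fold. The medians of the 10 factors (-0.16), the U7 ring (0.03), cleavage (-0.04), cap binding (-0.03) and decay (-0.12) lie near 0. Those of histone gene transcription (-0.42) and the variant histones (-0.51) lie lower, and that of the replication-dependent histone genes lies at -1.47.

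The histone mRNAs on which the factors act had a lower median log2 ratio than the factors themselves. Of 66 replication-dependent histone genes 51 were kept, 50 of them lower and 1 higher, with a median log2 ratio of -1.47, and 37 were at least 2-fold lower, against 6.72% of all genes. Of the 51, 18 passed the filter through control alone, 11 of them among the 37, and so had to be lower. Of the 32 with at least 1 FPKM in both libraries, 32 were lower and 26 at least 2-fold lower, with a median of -1.60. Of all 13554 genes kept, 6812 were lower, and the share under the filter of both libraries was not taken. Over all 66 histone genes with no filter the median was -1.08. With a pseudocount of 5 FPKM the median of the 51 was -0.84. These genes were already known to be lower in this library, so the counts are a description. H3C2 had 17.7 FPKM in control against 1.31 in FZR1 ko (-3.02). H2AC18 and H2AC19, which are near-identical genes with equal values, so that their reads may not be separable, had 101 and 12.5 FPKM each (-2.91). H2AC7 was the gene that was higher, with 0.47 and 1.35 FPKM (0.68), and passed the filter through FZR1 ko alone. For each unit of SLBP mRNA the summed histone mRNA was 29.0 FPKM in control against 8.67 in FZR1 ko. Histone mRNA has no poly(A) tail, the study's methods speak of sequencing total RNA without saying whether poly(A) RNA was selected, and the part of any selection in the result was not tested.

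The histone genes were lower with each of the 4 frequent stem-loops printed above. The 38 genes with the stem-loop of H3C2 summed to 470 FPKM in control against 98.8 in FZR1 ko, a log2 ratio of -2.24. The 10 genes with that of H4C3 summed to 26.7 and 7.76 FPKM (-1.66), the 8 with that of H2BC12 to 291 and 81.6 FPKM (-1.82), and the 4 with that of H4C14 to 86.1 and 31.5 FPKM (-1.42). A few genes carried much of these sums. H2AC18 and H2AC19 made up 201 of the 470 FPKM, and without them, a choice made after seeing the data, the other 36 genes had a log2 ratio of -1.85. H2BC12 made up 218 of the 291 FPKM, and the other 7 genes had one of -1.43. H4C14 and H4C15, which have equal values of 28.4 and 13.6 FPKM and may not be separable either, made up 56.8 of the 86.1 FPKM, and the other 2 genes had one of -2.52. The order of the sums by log2 ratio thus changed with the genes left out. The versions of H4C3 and H4C14 occurred in H4 genes alone among the 66, while those of H3C2 and H2BC12 were each found in H1, H2A, H2B and H3 genes.

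**Figure D3:**
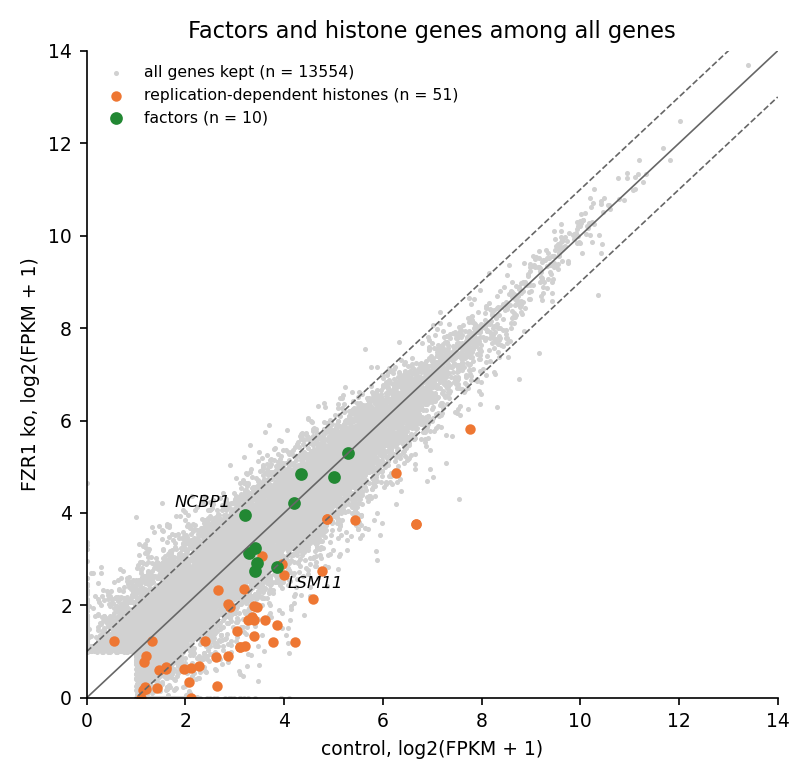
Control against FZR1 ko, both as log2(FPKM + 1), for the 13554 genes kept (grey), the 51 histone genes kept (orange) and the 10 factors (green), with the line of equal values and dashed lines at 2-fold. The factors lie within the cloud of all genes, LSM11 at its lower 2-fold line, and 37 of the histone genes lie on or below that line.

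Neighbouring genes were compared next. Within 1000 bases of their start, 4 of the 10 factors have another gene that starts on the opposite strand in GENCODE 44, so that the pair can share a promoter region. NPAT starts 429 bases from ATM, the kinase of the DNA damage response, which had 4.92 FPKM in control against 5.96 in FZR1 ko (0.23), against -0.16 for NPAT. NCBP1 starts 453 bases from TSTD2, which had 5.42 and 5.75 FPKM (0.07), against 0.75 for NCBP1. ZNF473 starts 633 bases from VRK3, a member of a kinase family, which had 8.31 and 8.05 FPKM (-0.04), against -0.52 for ZNF473. CPSF3 starts 126 bases from ITGB1BP1, which binds an integrin, with 55.7 and 57.4 FPKM (0.04), close to CPSF3 (0.01). The neighbours of NCBP1 and ZNF473 were thus nearer to equal levels than these factors themselves.

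Promoters from 250 bases before to 50 bases after the start were taken from RefSeq on GRCh38.p14, which held 7 of the 10 factors and not ERI1, ZNF473 and NCBP1. E2F-like letters (TTTCGCGC, TTTGGCGC or TTTCCCGC, both strands) occurred in 2 of 7, CASP8AP2 and CPSF3, against 2.74% of 35116 promoters. CCAAT occurred in 3 of 7 (LSM10, CASP8AP2 and NPAT) against 34.6%, and GGAAGTG in 1 of 7 (NPAT) against 11.2%. TTTGAA or TTCGAA occurred in 1 of 7 (LSM11) against 16.4%, and TATAAA in 0 of 7 against 11.5%. The promoters of LSM11, CASP8AP2 and CPSF3 are shown, since the first 2 belong to the factors furthest below control and the other to a factor that hardly differed but holds the same E2F-like letters as CASP8AP2. They lie on the plus strand at chr5:157743462-157743761, chr6:89829630-89829929 and chr2:9423404-9423703, with capitals for the matches. Counted from the RefSeq start, which for CASP8AP2 lies upstream of the GENCODE 44 start given above, the E2F-like letters begin 149 bases before CASP8AP2 and 218 bases before CPSF3, and the log2 ratios of these factors were -0.66 and 0.01.
LSM11: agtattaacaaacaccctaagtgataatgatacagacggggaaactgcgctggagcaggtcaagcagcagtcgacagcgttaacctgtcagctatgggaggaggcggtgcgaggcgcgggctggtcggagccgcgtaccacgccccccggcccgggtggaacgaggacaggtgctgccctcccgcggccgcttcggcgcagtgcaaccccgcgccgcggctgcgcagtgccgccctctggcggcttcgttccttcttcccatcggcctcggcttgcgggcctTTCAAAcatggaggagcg
CASP8AP2: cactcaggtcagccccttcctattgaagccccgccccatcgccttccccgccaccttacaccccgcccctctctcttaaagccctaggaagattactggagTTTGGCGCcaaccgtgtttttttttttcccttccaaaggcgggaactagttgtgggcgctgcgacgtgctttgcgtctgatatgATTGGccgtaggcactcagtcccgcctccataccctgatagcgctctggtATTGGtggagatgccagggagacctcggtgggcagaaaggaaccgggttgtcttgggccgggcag
CPSF3: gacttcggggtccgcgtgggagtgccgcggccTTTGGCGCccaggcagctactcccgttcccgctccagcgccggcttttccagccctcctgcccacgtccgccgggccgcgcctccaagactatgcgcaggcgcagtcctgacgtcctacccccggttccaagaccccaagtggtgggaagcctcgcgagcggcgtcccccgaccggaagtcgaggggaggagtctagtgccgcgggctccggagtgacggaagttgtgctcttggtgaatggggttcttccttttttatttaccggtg

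A change of pseudocount or filter cannot turn the direction of a factor, so only a change of scale could. The 2 scalings tried used the all-gene median of -0.0048 and the column sums of 502589 and 500488 FPKM. Both shifts were too small to turn any factor, so the 20 of 20 values with the direction given above were fixed in advance. LSM11 was at least 2-fold lower with a pseudocount of 0.1 FPKM (-1.13) and without a pseudocount (-1.14), but not with one of 5 FPKM (-0.73), where 0 of 10 factors differed at least 2-fold. CASP8AP2 ranged from -0.75 to -0.45, ZNF473 from -0.59 to -0.36 and NCBP1 from 0.56 to 0.82. The values of SLBP, ERI1, LSM10, NPAT, CPSF3 and SYMPK moved by less than 0.1.

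**Figure D4:**
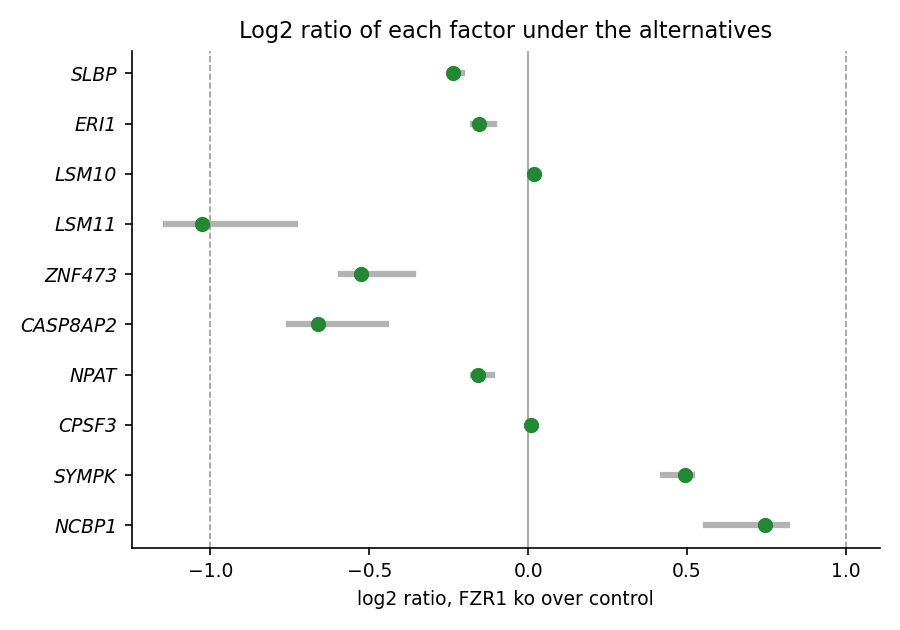
Log2 ratio of FZR1 ko to control for each factor, with a green point for the value given in the text, a grey bar over its range under the alternatives and dashed lines at 2-fold. The bar of LSM11 crosses the lower 2-fold line, from -1.14 to -0.73, and its ends, like those of the other long bars, come from the choice of pseudocount, which cannot move a value across 0.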

How the data were processed

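Sequencing used a BGISEQ-500. The authors mapped reads with Bowtie2 and estimated expression by RSEM on hg38, and the submitters' processing notes also name Trimmomatic 0.36, HISAT2 2.1.0 and Bowtie2 2.2.5, while the paper's text gives another Bowtie2 version. The deposited values are FPKM per Entrez gene ID to 2 decimals, with no counts, so depth and counting error are unknown. Transcript annotation and strand setting are not given in the sources used here. Of 24663 rows, 1630 had no value in either library. Of the remaining 23033 gene IDs, 22925 (99.5%) matched a symbol of the RefSeq table for GRCh38.p14.

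The log2 ratio of FZR1 ko to control, after 1 FPKM was added to each value, was taken for the 13554 genes that reached 1 FPKM in either library. This pseudocount understates the change of low genes. Single libraries allow no test. The computation was run on simulated data with large changes planted in well-expressed genes and little noise, which checks the code alone and not the results. The genes and lists were chosen with earlier results of these data known. The genes named were the 10 factors, FZR1, cell markers, list members at least 2-fold apart (for histones the 3 furthest lower and any higher), neighbours on the opposite strand and a few list members for context, which were chosen after their values were seen. Positions are those of the canonical GENCODE 44 transcripts on hg38. Python 3.11.15, numpy 2.4.6, pandas 2.3.3 and matplotlib 3.10.9 were used.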

Additional observations from a re-analysis of the deposited data

How the results depend on the processing

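No paired analysis was possible because the control and FZR1 ko are single libraries and no result comes from a test. For the same reason no replicate could be left out. With no replicates, a median was counted as moved when it shifted by over 0.1 or changed side or sign. The ratio without a pseudocount was chosen after seeing the data. Against 1 of 10 factors and 1830 genes at least 2-fold apart, a pseudocount of 5 FPKM gave 0 factors and 453 genes, a 1.5-fold threshold gave 3 factors and 4827 genes, and a pseudocount of 0.1 FPKM gave 2818 genes, by the construction of these settings. The median of the histone genes, -1.47, was -2.04 with a pseudocount of 0.1 FPKM, -0.84 with one of 5 FPKM, -1.08 with no filter and -1.60 with at least 1 FPKM in both libraries. With a pseudocount of 5 FPKM the median of the histone transcription list was -0.27 in place of -0.42. With at least 1 FPKM in both libraries the median of the cleavage list was 0.0013 in place of -0.04, when CSTF2T was left out. The S phase list went from 0.04 to -0.0040 without SLC25A1, and the stem-loop sums of H3C2, H2BC12 and H4C14 went to -1.85, -1.43 and -2.52 without the genes that carried much of them, alternatives also chosen after seeing the data. The median of the 10 factors, the other list medians and the sum over all histone genes did not move by this rule. The sum was taken before any filter and is large beside the pseudocounts, so these settings could hardly move it. The deposited FPKM do not tell the depth behind a low value.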

Other observations

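Genes of S phase and the histone variants made outside it were compared in the same way, without further explanation. Of 20 S phase genes kept, 10 were lower and 10 higher in FZR1 ko, with a median log2 ratio of 0.04. The list holds SLC25A1, a mitochondrial citrate carrier, by mistake, and without it 10 of 19 were lower and 9 higher, with a median of -0.0040. The genes at least 2-fold apart were both higher in FZR1 ko, 2 of 20 against 6.78% of all genes: POLA1, the catalytic subunit of DNA polymerase alpha, with 3.01 and 9.63 FPKM (1.41), and PRIM1, a subunit of the primase bound to it, with 11.1 and 24.97 FPKM (1.11). PCNA, the sliding clamp, had 328 FPKM in control against 212 in FZR1 ko (-0.62), and FEN1, a flap nuclease, had 276 and 167 FPKM (-0.73).

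Histone variants are mostly made from polyadenylated mRNA that does not need the stem-loop factors. Of the 9 variant genes kept, 8 were lower and 1 was higher in FZR1 ko, with a median of -0.51, and 0 of 9 differed at least 2-fold, against 13.5% of all genes. H2AZ1 had 686 FPKM in control against 430 in FZR1 ko (-0.67), and H3-3A had 271 and 152 FPKM (-0.83). MACROH2A1, which was the variant that was higher, had 85.4 and 148 FPKM (0.79). H2AX, whose mRNA exists with and without a poly(A) tail, had 96.4 and 71.1 FPKM (-0.44).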
